A study of Mus musculus with 8 samples.

Results

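Glycerol handling in brown adipose tissue (BAT), the heat-producing fat depot of rodents, was examined through the 6 genes Aqp7, Gk, Gpd1, Gpd1l, Gpd2 and Pck1. They were taken by name, by matching the Ensembl identifiers of the count table to mouse gene symbols, and are 6 of the 31053 genes in that table. All 6 passed the filter on low counts. Bulk RNA-seq had been made from BAT of 8-week-old mice, with 4 wild-type (WT) and 4 db/db samples. The db/db mice carry a mutation of the leptin receptor gene Lepr in every cell, become obese and overeat. The labels give the strain C57BL6/J for every sample, while the study's methods name the db/db mice as B6.BKS(D)-Leprdb/J. Whether the genetic background was the same in both genotypes is therefore not settled. A part of the background in the differences was not tested. By the study's methods the mice were males given normal diet, and tissues were taken after fasting. The sources differ on whether the WT mice came from the same supplier as the db/db mice, and a part of the supplier in the differences was not tested.

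Glycerol 3-phosphate is the backbone on which triglycerides are built. An adipocyte can make it from glucose, from glycerol through glycerol kinase, or from pyruvate and amino acids through glyceroneogenesis, whose committed cytosolic step is run by phosphoenolpyruvate carboxykinase. Aquaporin 7 lets glycerol cross the adipocyte membrane. The cytosolic and mitochondrial glycerol 3-phosphate dehydrogenases together form a shuttle that passes electrons from cytosolic NADH to the respiratory chain, and BAT is known for high activity of this shuttle and for more glycerol kinase than white fat.

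Library totals ran from 2374079 to 3240074 counts, so that 3 counts, taken as the smallest detectable level, corresponded to between 0.902 and 1.33 CPM. CPM, the level used throughout, is the count relative to the library total over the tested genes, adjusted by the TMM scaling factor of the library. Lepr had 0 counts in each of the 8 libraries, which gave no check of the genotype. The labels name the cell type as stromal vascular fraction and the tissue as BAT. Genes of mature adipocytes (Adipoq, Plin1, Cidec, Fabp4, Lipe and Pparg) summed to 8861 to 15741 CPM in WT and 14523 to 19502 CPM in db/db, which goes against that cell type label. Fabp4 made up most of the sum, with means of 7789 CPM in WT and 12193 CPM in db/db. Of these 6 pan-adipocyte genes 2 were higher in db/db and none lower. They were Plin1 (log2 fold change 0.79, edgeR adjusted p 1.82e-04) and Fabp4 (0.65, edgeR adjusted p 0.0299), while Adipoq, Cidec, Lipe and Pparg did not pass. The libraries are described here as whole tissue.

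The other cell types of the tissue differed between the genotypes. All 5 tested brown adipocyte markers were lower in db/db, 8 of 9 macrophage markers and 5 of 5 fibroblast markers were higher, and 2 of 5 endothelial markers were lower. Skeletal muscle markers were higher for 9 of 12 genes and summed to 445 to 1555 CPM in WT and 2301 to 11386 CPM in db/db, the highest sum being in db/db replicate 1. In whole tissue, fewer cells of a type and less RNA per cell cannot be told apart.

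The count table was fitted as a whole with the edgeR quasi-likelihood test, and 28.2% of the 9264 genes tested passed a Benjamini-Hochberg adjusted p of 0.05, 16.0% higher and 12.2% lower in db/db. Of the 6 glycerol genes 2 passed, Aqp7 upward and Gpd1 downward, a share near that of all genes. The median log2 fold change was −0.39 over the 6 genes and 0.01 over all genes tested. The libraries of the genotypes did not overlap for 1 of the 6 genes, Aqp7, against 28.1% of all genes.

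**Figure D1:**
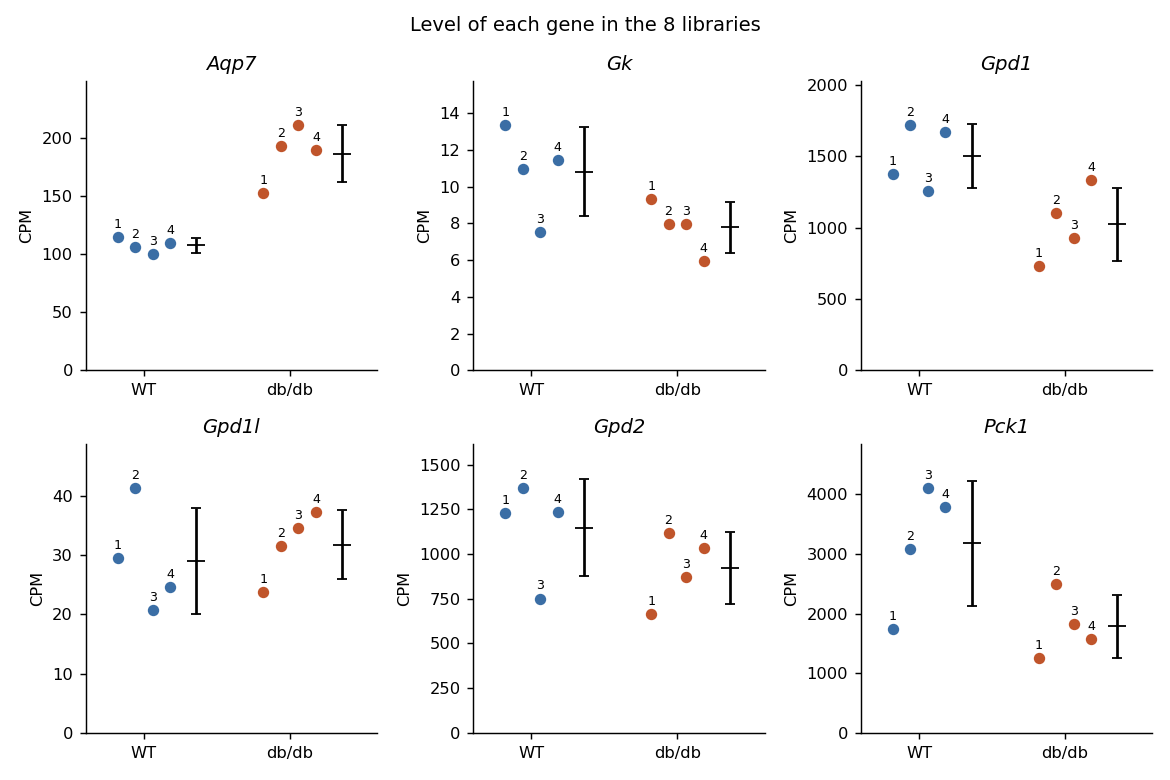
Level of each of the 6 genes in CPM (vertical axes from 0, each with its own scale) in the 4 WT and 4 db/db libraries. Points are libraries with their replicate number, and the bar beside them is the mean ± SD. Every db/db library lies above every WT library for Aqp7, and the genotypes overlap for the other 5 genes.

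Upstream sequences are shown for the channel, the kinase and the carboxykinase, which stand for glycerol transport, its phosphorylation and glyceroneogenesis. They are the 250 bases before a RefSeq start of Aqp7, Pck1 and Gk on build GRCm38.p6, written from 5′ to 3′ on the strand of the gene. Capitals mark a match, on either strand, to one of the motifs searched.
Aqp7, chr4:41048137-41048386, minus strand: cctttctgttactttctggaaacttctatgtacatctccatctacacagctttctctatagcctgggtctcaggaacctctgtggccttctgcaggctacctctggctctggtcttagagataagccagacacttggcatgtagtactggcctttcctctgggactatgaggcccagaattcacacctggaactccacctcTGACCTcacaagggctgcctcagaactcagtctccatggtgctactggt
Pck1, chr2:173152823-173153072, plus strand: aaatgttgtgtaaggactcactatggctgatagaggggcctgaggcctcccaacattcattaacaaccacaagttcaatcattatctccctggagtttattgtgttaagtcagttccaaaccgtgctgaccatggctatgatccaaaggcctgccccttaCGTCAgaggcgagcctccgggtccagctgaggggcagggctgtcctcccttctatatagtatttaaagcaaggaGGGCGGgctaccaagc
Gk, chrX:85776820-85777069, minus strand: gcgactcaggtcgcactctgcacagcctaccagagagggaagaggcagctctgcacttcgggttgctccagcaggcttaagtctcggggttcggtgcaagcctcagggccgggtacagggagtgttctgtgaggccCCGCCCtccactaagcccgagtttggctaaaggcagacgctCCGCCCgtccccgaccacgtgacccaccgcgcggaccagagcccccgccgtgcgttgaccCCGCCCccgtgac

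The motifs were the nuclear receptor hexamer AGGTCA, its direct repeat with a spacer of 1 base, the cyclic AMP response element TGACGTCA and its shorter core TGACG, the TATA box TATAAA, the GC box GGGCGG and the CCAAT box CCAAT. The repeat contains the hexamer and the full response element contains its core. Aqp7 held the hexamer at −49 to −44 from the start used here. RefSeq gives Aqp7 another start, whose overlapping window (41047963 to 41048212) held the hexamer at −223 to −218, which are the same bases, and also at −101 to −96. From their own starts, Pck1 held the core at −90 to −86 and a GC box at −16 to −11, and Gk held 3 GC boxes. Of 32851 upstream windows of the same length, 14.0% held the hexamer, 17.8% the core, 32.7% a GC box, 12.4% a TATA box, 33.9% a CCAAT box, 1.55% the full response element and 0.033% the repeat. The GC content was 50.8% for Aqp7, 50.8% for Pck1 and 67.2% for Gk, beside a median of 52.4% over all windows. The table held windows for 5 of the 6 genes. These are matches of letters, and no binding was measured.

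Aqp7 (ENSMUSG00000028427, chromosome 4, 41033074 to 41048139, minus strand, mm10), the adipocyte glycerol channel, was the gene that rose. It read 115.3, 105.9, 100.3 and 109.9 CPM in WT replicates 1 to 4 and 152.5, 193.4, 211.4 and 189.7 CPM in db/db replicates 1 to 4. All db/db libraries were above all WT libraries, and the WT libraries lay close together. The mean went from 107.9 ± 6.34 to 186.8 ± 24.7 CPM (SD, n = 4 each), a 1.73-fold increase with a 95% interval of 1.43 to 2.09 (log2 fold change 0.79 with an SE of 0.13, edgeR adjusted p 7.13e-05). The upstream window of this gene printed above is the only one of the 3 printed that holds the AGGTCA hexamer. Among all windows 14.0% hold it, and its part in the change was not tested. No other annotated gene overlaps Aqp7. Scaled to the pan-adipocyte genes in place of TMM, which moved the median log2 fold change of all genes from 0.01 to −0.19 and the share of increases among calls from 56.7% to 36.7%, the Aqp7 change was 0.58 (edgeR adjusted p 0.0133).

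Of the other glycerol channels on the list, 2 were too low to test and Aqp11 was tested. Aqp3 had 0 counts in the 8 libraries, which allows at most between 0.902 and 1.33 CPM. Aqp9 had at most 5 counts in a library. Aqp11 read 3.01 to 8.498 CPM in WT and 2.66 to 5.11 CPM in db/db, and did not pass the test (log2 fold change −0.35, edgeR adjusted p 0.596).

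Gk (ENSMUSG00000025059, chromosome X, 85701937 to 85776819, minus strand), glycerol kinase, phosphorylates glycerol to glycerol 3-phosphate. It read 13.4, 10.97, 7.52 and 11.5 CPM in WT replicates 1 to 4, and 9.33, 7.95, 7.98 and 5.95 CPM in db/db. The 3 highest libraries were WT, and WT replicate 3 lay below 3 of the 4 db/db libraries. The mean was 10.8 ± 2.43 CPM in WT and 7.80 ± 1.39 CPM in db/db (SD, n = 4 each), with a log2 fold change of −0.46 and an SE of 0.30 (adjusted p 0.269 by edgeR). The 95% interval, 0.474-fold to 1.11-fold, spans a fall to below 0.50 of WT and a slight rise. These values rest on 16 to 33 counts per library, for which counting alone gives a relative error of 17.4% to 25.0%. Exons of Gk share positions with Gm14764 on the other strand, which had 0 counts in the 8 libraries.

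Of 3 further kinase genes on the list, 2 could be tested and neither passed. Gk2 had 0 counts throughout. Gk5, a related sugar kinase gene, read 4.67 to 10.1 CPM in WT and 5.41 to 8.42 CPM in db/db and did not pass (log2 fold change −0.11, edgeR adjusted p 0.860), nor did Tkfc, which encodes the kinase of dihydroxyacetone.

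Gpd1 (ENSMUSG00000023019, chromosome 15, 99717515 to 99725005, plus strand), the cytosolic NAD-linked dehydrogenase that interconverts dihydroxyacetone phosphate and glycerol 3-phosphate, fell. It read 1373, 1718, 1253 and 1668 CPM in WT replicates 1 to 4 and 730.1, 1101, 926.4 and 1331 CPM in db/db. Of the db/db libraries 3 were below every WT library, and db/db replicate 4 was above WT replicate 3. The mean went from 1503 ± 226 to 1022 ± 256 CPM (SD, n = 4 each), 0.680 of the WT level with a 95% interval of 0.537 to 0.861 (log2 fold change −0.56 with an SE of 0.16, edgeR adjusted p 0.0139). The call was lost without WT replicate 2 (log2 fold change −0.50, edgeR adjusted p 0.0522) and without WT replicate 4 (−0.51, adjusted p 0.0521). The lowest Gpd1 level was in db/db replicate 1, the library with the most muscle transcripts, and without it the log2 fold change was −0.43 (edgeR adjusted p 0.0210). With the muscle score as a covariate it was −0.20 (adjusted p 0.763), though this score itself differs between the genotypes. Exons of Gpd1 share positions with Gm16537 on the other strand, which had at most 4 counts in a library.

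Gpd2 (ENSMUSG00000026827, chromosome 2, 57237635 to 57370719, plus strand), the FAD-linked dehydrogenase of the mitochondrial inner membrane and the other arm of the shuttle, did not pass. It read 1229, 1370, 751.5 and 1235 CPM in WT replicates 1 to 4, and 662.4, 1120, 871.9 and 1033 CPM in db/db. WT replicate 3 was the low library of its genotype, below 3 of the 4 db/db libraries, and the other WT libraries were above all of db/db. The mean was 1146 ± 271 CPM in WT and 921.7 ± 201 CPM in db/db (SD, n = 4 each), with a log2 fold change of −0.31 and an SE of 0.19 (adjusted p 0.226 by edgeR; 95% interval of the fold 0.614 to 1.05). Without WT replicate 3 it passed, at −0.49 (edgeR adjusted p 0.0286). With the muscle score as a covariate its sign turned (0.06, adjusted p 0.947). Exons of Gpd2 share positions with A930012O16Rik on the other strand, so its counts are uncertain.

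Gpd1l (ENSMUSG00000050627, chromosome 9, 114899341 to 114933987, minus strand), a relative of Gpd1 with the same reaction, showed no call either. It read 29.5, 41.4, 20.7 and 24.6 CPM in WT replicates 1 to 4, and 23.8, 31.5, 34.6 and 37.2 CPM in db/db. The highest and the lowest library were both WT. The mean was 29.0 ± 8.98 CPM in WT and 31.8 ± 5.82 CPM in db/db (SD, n = 4 each), with a log2 fold change of 0.13 and an SE of 0.21 (adjusted p 0.711 by edgeR; 95% interval of the fold 0.804 to 1.48). The sign was negative without WT replicate 3 (−0.03) and with scaling to the pan-adipocyte genes (−0.10).

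Pck1 (ENSMUSG00000027513, chromosome 2, 173153048 to 173159273, plus strand), cytosolic phosphoenolpyruvate carboxykinase, differed by about as much as Aqp7, in the other direction, and had the widest relative spread of the 6 in each genotype. It read 1745, 3078, 4109 and 3786 CPM in WT replicates 1 to 4, and 1253, 2495, 1822 and 1579 CPM in db/db. WT replicate 1 was below db/db replicates 2 and 3, and the other WT libraries were above all of db/db. The mean was 3179 ± 1049 CPM in WT against 1787 ± 527 CPM in db/db (SD, n = 4 each), 0.562 of the WT level with a 95% interval of 0.351 to 0.901. In the test chosen this missed the threshold (log2 fold change −0.83 with an SE of 0.30, edgeR adjusted p 0.0711, unadjusted p 0.0223). With DESeq2, the tool the study used, it passed (log2 fold change −0.86, adjusted p 0.0356), as it did with limma-voom (−0.80, adjusted p 0.0158). It also passed with edgeR dispersions estimated without robust weighting (adjusted p 0.0132), an alternative chosen after seeing the data. Of 12 other settings 6 gave a call and 6 did not, the muscle score as a covariate among the latter (edgeR adjusted p 0.533). The value hung on single libraries as well, with −1.05 (edgeR adjusted p 5.84e-04) without WT replicate 1 and −1.04 (0.0119) without db/db replicate 2. Leaving out any other library left it without a call (−0.86 to −0.70, edgeR adjusted p 0.107 to 0.211). No other annotated gene overlaps Pck1.

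**Figure D2:**
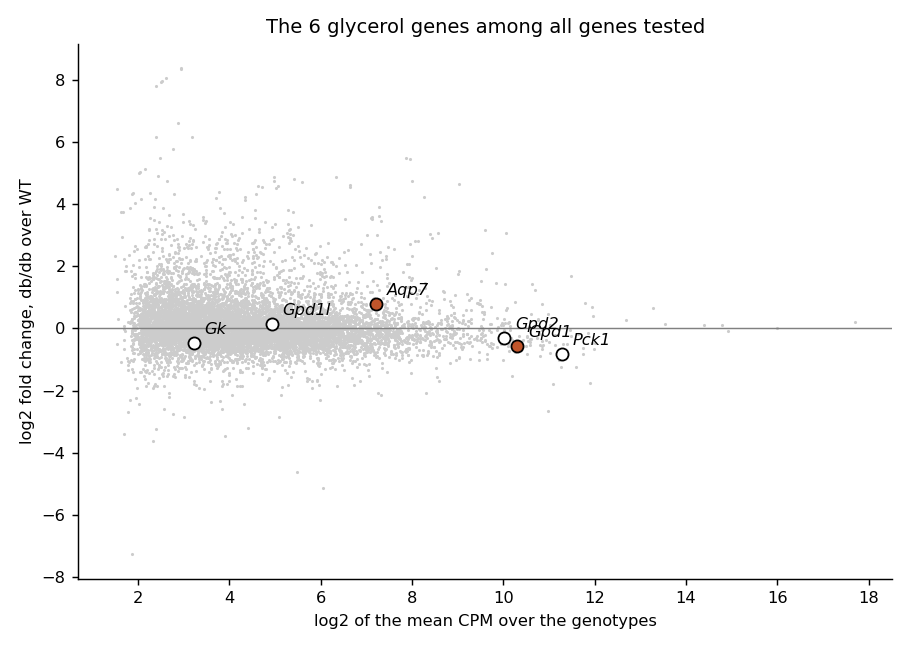
Log2 fold change (db/db over WT, vertical axis) against the log2 of the mean CPM over the genotypes (horizontal axis) for the 9264 genes tested, in grey. The 6 glycerol genes are circled, filled where the edgeR adjusted p was under 0.05. Aqp7 lies above 0, Pck1, Gpd1 and Gpd2 lie below it among the abundant genes, and Gk lies among the low ones.

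Divided by exon length, the levels of the 6 genes kept one order in the genotypes, from Pck1 through Gpd1, Gpd2, Aqp7 and Gpd1l to Gk. Pck1 averaged 927.2 ± 306 and 521.2 ± 154 CPM per kb in WT and db/db, and Gpd1 507.6 ± 76.2 and 345.2 ± 86.3 CPM per kb (SD, n = 4 each). These neighbours overlapped in each genotype. Gpd2 averaged 175.1 ± 41.4 and 140.7 ± 30.7 CPM per kb, and Aqp7 38.1 ± 2.24 and 66.0 ± 8.74 CPM per kb (SD, n = 4 each). Gpd1l followed at 5.72 ± 1.77 and 6.26 ± 1.15, and Gk was last at 1.40 ± 0.314 and 1.01 ± 0.180 CPM per kb (SD, n = 4 each). From Gpd1 downward, the libraries of neighbours in this order did not overlap in either genotype. By this measure 99.3% of the tested genes were below Pck1, 98.7% below Gpd1, 97.1% below Gpd2, 92.7% below Aqp7, 60.3% below Gpd1l and 13.6% below Gk. Whether reads cover whole transcripts is not given in the sources used here, and a library that reads transcript ends would not scale with length.

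To ask whether steps of the pathway moved by different amounts, 4 ratios were taken within each library, where the scaling cancels. The log2 of Gk over Aqp7, the kinase against the channel, was −3.04, −3.19, −3.61 and −3.18 in WT replicates 1 to 4 and −3.93, −4.48, −4.60 and −4.83 in db/db. All db/db libraries were below all WT libraries. The mean went from −3.25 ± 0.25 to −4.46 ± 0.38 (SD, n = 4 each), a difference of −1.20 (exact two-sided permutation p = 0.0286, the smallest the design allows, adjusted 0.0571 over the 4 ratios).

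Gpd1 over Gpd1l was the other ratio with no overlap. It was 5.50, 5.35, 5.87 and 6.04 on the log2 scale in WT replicates 1 to 4 and 4.90, 5.09, 4.71 and 5.13 in db/db, a difference of −0.73 (exact permutation p = 0.0286, adjusted 0.0571). Gpd1 over Gpd2, the cytosolic against the mitochondrial arm of the shuttle, had means of 0.41 ± 0.24 and 0.14 ± 0.16 in the WT and db/db libraries (SD, n = 4 each), differing by −0.27 with overlapping libraries (exact permutation p = 0.114, adjusted 0.152). Gk over Pck1, the recycling of glycerol against its synthesis, averaged −8.06 ± 0.83 and −7.68 ± 0.51 (SD, n = 4 each), a difference of 0.38 (exact permutation p = 0.429, adjusted 0.429). Single libraries moved these differences, Gk over Pck1 to 0.078 without WT replicate 3, 0.14 without db/db replicate 1 and 0.75 without WT replicate 1, and Gpd1 over Gpd2 to −0.16 without WT replicate 3. None of the 4 ratios passed 0.05 after adjustment. Both ratios without overlap were at the smallest p the design allows, 0.0286, which adjusted to 0.0571. With the other ratios as they were, these could not have passed, so nothing is concluded from that.

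**Figure D3:**
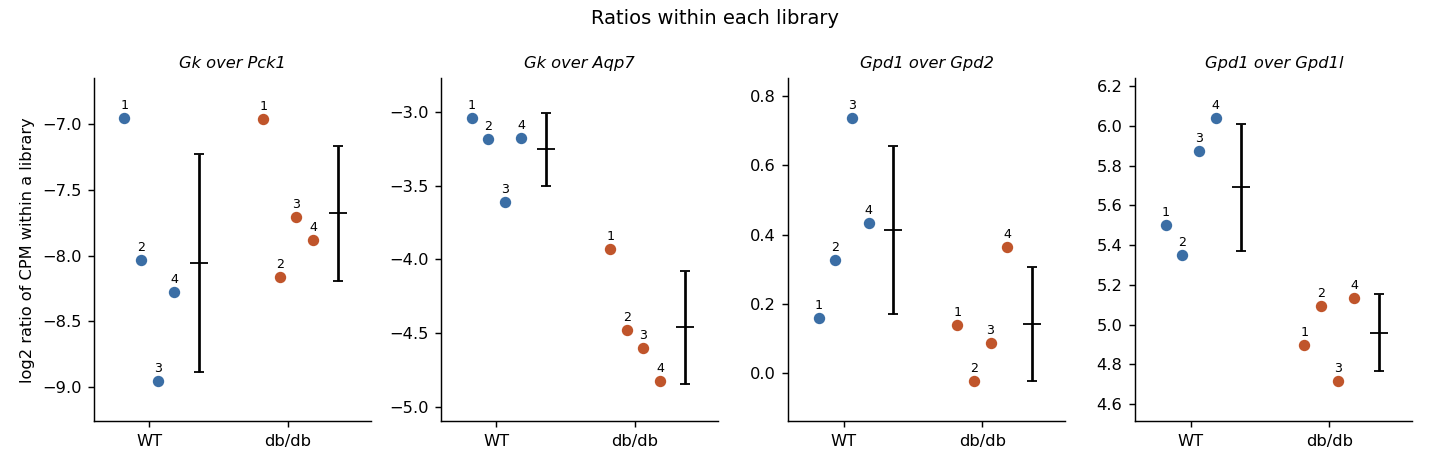
Log2 ratio of the CPM of 2 genes within each library (vertical axes, each with its own range) for the 4 pairs compared, in WT and db/db. Points are libraries with their replicate number, and the bar beside them is the mean ± SD. The genotypes are apart for Gk over Aqp7 and Gpd1 over Gpd1l, and overlap for Gk over Pck1 and Gpd1 over Gpd2.

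The steps around these genes were read from a list of 37 further genes, of which 32 could be tested and 10 passed, 5 higher and 5 lower in db/db. This is 31.2% of those tested, near the 28.2% of all genes, which is also the background for the count at each step. Their median log2 fold change was −0.15. With the muscle score as a covariate 2 of them passed, Pcx and Got2, and 12 passed with DESeq2 or with limma-voom. With at least 10 counts required in every sample 6 passed, since Got1, Slc25a10 and Gpam were then too low to be tested and Slc25a11 lost its call (edgeR adjusted p 0.0649).

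On the side of glycerol release, 1 of 3 lipase genes passed. Mgll, which encodes the monoglyceride lipase that frees glycerol in the last step of lipolysis, rose from 555.2 ± 76.0 to 921.8 ± 129 CPM (SD, n = 4 each), with a log2 fold change of 0.73 and an SE of 0.14 (adjusted p 2.94e-04 by edgeR). Its lowest db/db library, at 805.2 CPM, was above its highest WT library, at 636.2 CPM. An exon of Mgll shares positions with Gm26588, so its counts are uncertain. Pnpla2 and Lipe, the lipases of the earlier steps, did not pass.

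Between pyruvate and phosphoenolpyruvate, 5 of the 9 tested genes passed, 3 higher and 2 lower. Pcx, pyruvate carboxylase, which makes the oxaloacetate that Pck1 uses, fell from 262.5 ± 16.6 to 135.0 ± 9.32 CPM (SD, n = 4 each), with a log2 fold change of −0.96 and an SE of 0.13 (adjusted p 2.48e-06 by edgeR). All db/db libraries, at 122.8 to 145.3 CPM, were below all WT libraries, at 248.3 to 285.3 CPM. Slc25a11, the mitochondrial carrier of oxoglutarate and malate, fell with a log2 fold change of −0.39 and an SE of 0.14 (adjusted p 0.0366 by edgeR). This call was lost on leaving out WT replicate 2, WT replicate 4, db/db replicate 1 or db/db replicate 2 (edgeR adjusted p 0.0582 to 0.106). It shares positions with Rnf167 and is uncertain.

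Both transaminase genes and another carrier gene of the same step were higher in db/db. Got2, mitochondrial aspartate aminotransferase, rose from 26.9 ± 4.17 to 79.7 ± 9.03 CPM (SD, n = 4 each), with a log2 fold change of 1.57 and an SE of 0.17 (adjusted p 9.04e-08 by edgeR), with all db/db libraries at 70.0 CPM or more and all WT libraries at 31.4 CPM or less. Got1, its cytosolic counterpart, rose from 6.79 ± 4.27 to 21.6 ± 13.2 CPM (SD, n = 4 each), with a log2 fold change of 1.69 and an SE of 0.52 (adjusted p 0.0378 by edgeR), and db/db replicate 1 was high at 41.2 CPM. Got1 did not pass without WT replicate 2, WT replicate 3 or db/db replicate 2 (edgeR adjusted p 0.0943, 0.111 and 0.0574), nor with library totals alone (0.0503) or scaling to the pan-adipocyte genes (0.0647). Slc25a10, the mitochondrial dicarboxylate carrier, rose with a log2 fold change of 1.31 and an SE of 0.45 (adjusted p 0.0427 by edgeR), with db/db replicate 1 again high at 24.97 CPM. It did not pass without this library (0.86, edgeR adjusted p 0.144), nor without WT replicates 2, 3 or 4 or db/db replicates 2 or 4 (0.051 to 0.123), nor with library totals alone (0.0786) or scaling to the pan-adipocyte genes (0.0717). With the muscle score as a covariate Got1 turned to −0.22 (adjusted p 0.868), while Got2 kept 1.24 (adjusted p 0.00636) and Pcx −0.93 (adjusted p 0.0134). Got2 and Slc25a10 share positions with Gm45760 and Gm11788 and are uncertain. Pck2, the mitochondrial carboxykinase, did not pass, nor did Mdh1, Mdh2 and Slc25a12.

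Among the enzymes that lead from phosphoenolpyruvate back to dihydroxyacetone phosphate, 1 of 5 passed. Tpi1, triosephosphate isomerase, rose from 109.5 ± 10.9 to 164.2 ± 20.5 CPM (SD, n = 4 each), with a log2 fold change of 0.58 and an SE of 0.14 (adjusted p 0.00188 by edgeR), without overlap between the genotypes. It did not pass with scaling to the pan-adipocyte genes (log2 fold change 0.38, adjusted p 0.101), and it shares positions with Spsb2 and is uncertain. Eno1, Pgam1, Pgk1 and Gapdh did not pass.

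Of the genes that use glycerol 3-phosphate, 2 of the 4 tested were lower in db/db and none higher, beside 12.2% lower and 16.0% higher among all genes. With 4 genes, nothing is read from this share. Gpam, the mitochondrial acyltransferase that starts glycerolipid synthesis, fell from 8.27 ± 3.83 to 2.73 ± 1.09 CPM (SD, n = 4 each), with a log2 fold change of −1.61 and an SE of 0.44 (adjusted p 0.00761 by edgeR), on 5 to 28 counts per library. Gpam did not pass with the muscle score as a covariate (−0.64, edgeR adjusted p 0.762). Pgp, a phosphatase that can turn glycerol 3-phosphate back to glycerol, fell from 57.0 ± 4.64 to 38.4 ± 3.597 CPM (SD, n = 4 each), with a log2 fold change of −0.57 and an SE of 0.16 (adjusted p 0.00809 by edgeR). In each of these genes all db/db libraries were below all WT libraries. Gpat3 and Gpat4 did not pass.

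Of 8 regulators with known roles at these genes, 1 passed. Ppargc1a, a transcriptional coactivator of the thermogenic programme, fell from 26.5 ± 7.30 to 15.2 ± 2.92 CPM (SD, n = 4 each), with a log2 fold change of −0.79 and an SE of 0.23 (adjusted p 0.0117 by edgeR), and the call was lost without WT replicate 4 (−0.60, adjusted p 0.0746). It is overlapped outside its exons by 4 other annotated genes. Pparg, Rxra, Cebpa, Cebpb, Creb1, Nr3c1 and Foxo1 did not pass.

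**Figure D4:**
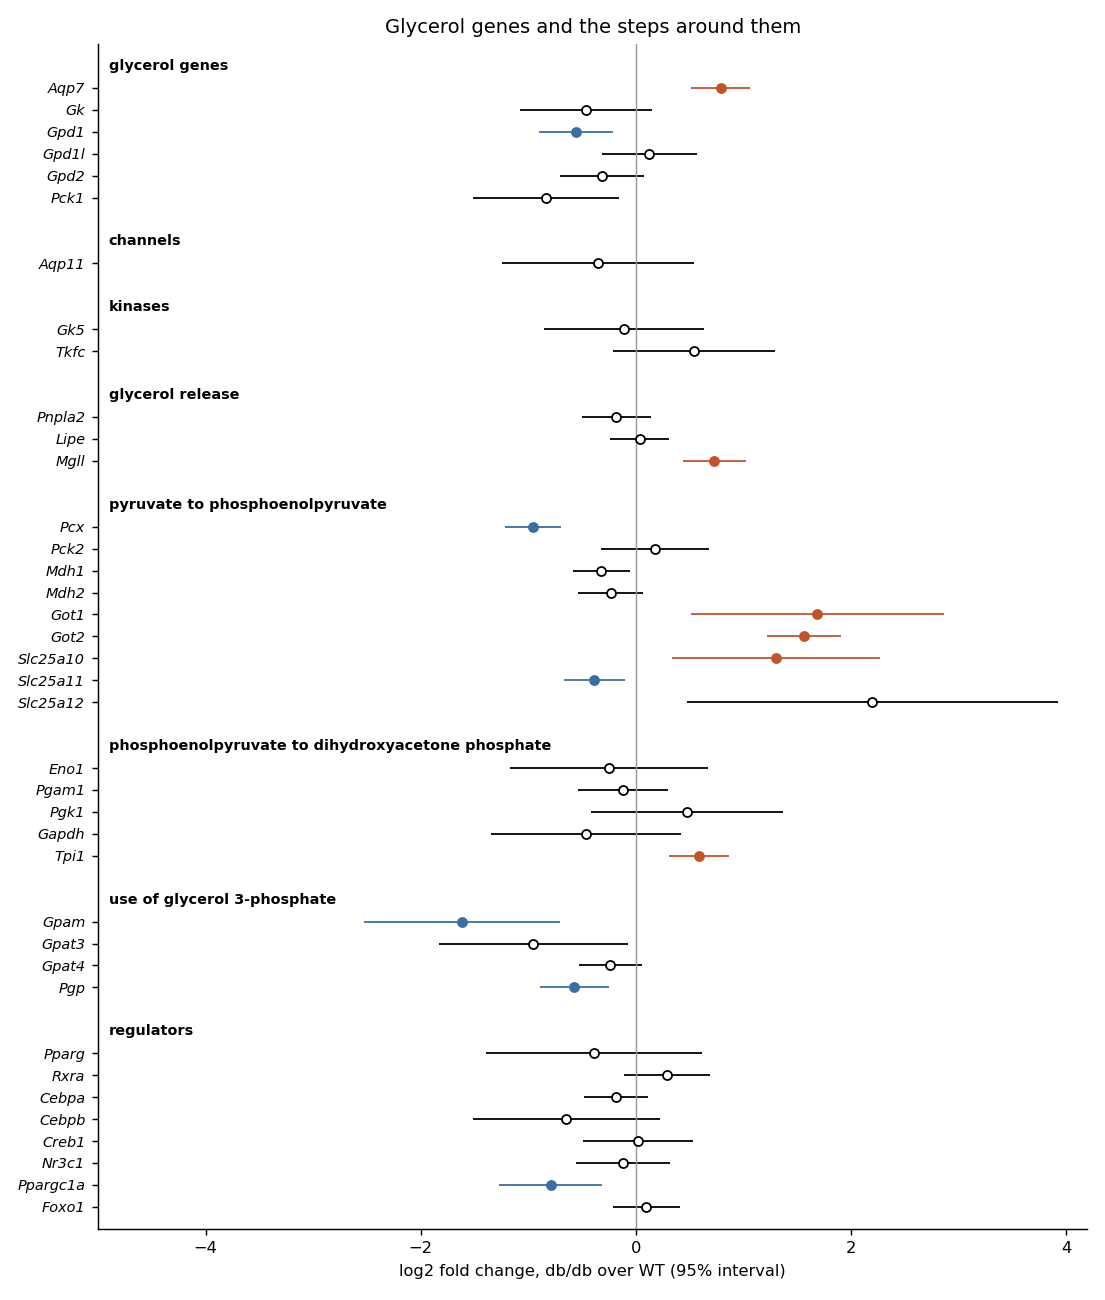
Log2 fold change (db/db over WT, horizontal axis) with its 95% interval for the 6 glycerol genes and the 32 tested genes of the surrounding steps. Filled points had an edgeR adjusted p under 0.05, in orange where higher and in blue where lower in db/db, and open points did not pass. Aqp7, Mgll, Got1, Got2, Slc25a10 and Tpi1 are filled to the right, and Gpd1, Pcx, Slc25a11, Gpam, Pgp and Ppargc1a to the left.

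Markers of other cell types also differed between the genotypes. Their part in these results was not tested beyond the fits on muscle given below. The brown adipocyte markers summed to 8878 to 10548 CPM in WT and 3707 to 6752 CPM in db/db, without overlap, while Elovl3 and Dio2 were too low to test. The macrophage sum was 122.0 to 155.9 CPM in WT and 648.1 to 1194 CPM in db/db. The fibroblast sum was 482.8 to 608.7 CPM in WT and 994.7 to 2051 CPM in db/db, and the endothelial sum was 257.7 to 306.3 CPM in WT and 191.8 to 223.8 CPM in db/db. Without db/db replicate 1, the library richest in muscle transcripts, the log2 fold change was 0.87 for Aqp7 (edgeR adjusted p 8.01e-06), −0.43 for Gpd1 (0.0210), −0.19 for Gpd2 (0.461) and −0.70 for Pck1 (0.211). With the muscle score as a covariate it was 1.003 for Aqp7 (edgeR adjusted p 0.00866), −0.20 for Gpd1 (0.763), 0.06 for Gpd2 (0.947) and −0.87 for Pck1 (0.533).

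**Figure D5:**
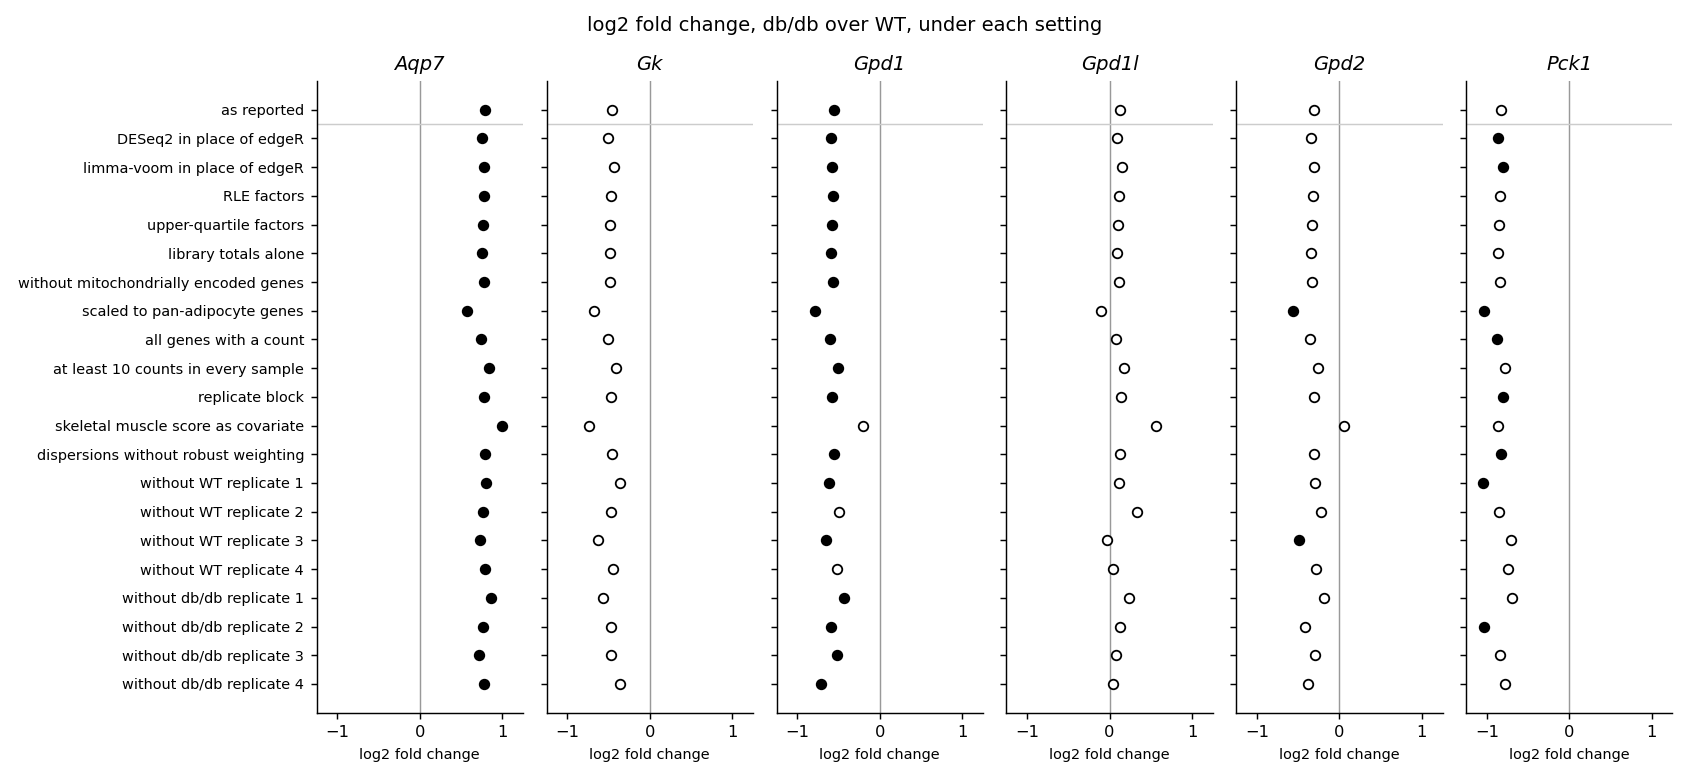
Log2 fold change (db/db over WT, horizontal axes) of each glycerol gene as reported and under each alternative setting or left-out library (rows). Filled points had an adjusted p under 0.05. Aqp7 is filled in every row, Gk and Gpd1l in none, Gpd1 in most, Gpd2 in 2 rows and Pck1 in 8.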

How the data were processed

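Total RNA of BAT was sequenced single-end by a commercial mRNA service. By the study's methods the authors trimmed reads with bbduk, aligned them to mm10 with STAR and counted them per gene with HTSeq-count, and they deposited raw counts. The submitters' processing notes list Trimmomatic, HISAT2 and DESeq2 instead. Strand setting, annotation and treatment of molecular identifiers are not given in the sources used here, so PCR copies may be included, and detection limits cover counting error only. The deposited log2 values and the sample sheet were not used here.

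Groups and replicate numbers came from the titles. Of 31053 genes, 30934 were found in the GENCODE M21 annotation of mm10. The other 119 took up to 0.00758% of a library. filterByExpr (minimum count 10, minimum total 15) left 9264 genes, which were scaled by TMM and tested with edgeR 4.0.16 (quasi-likelihood, robust, genotype as the only term) in R 4.3.3, with Benjamini-Hochberg adjustment over all of them at 0.05. Standard errors and 95% intervals came from the F statistic. DESeq2 1.42.0 and limma 3.58.1 were alternatives, beside other scalings, filters, covariates and left-out libraries. Ratios used log2 CPM with a prior count of 2. The fit was tested on simulated counts, where 124 of 190 genes changed by 1 on the log2 scale were called among 9067 genes, with 12 false calls, and with no gene changed 2 of 9018 genes were called.

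The glycerol genes and all lists were chosen with earlier results of these data known. All 6 glycerol genes are named, and values are given for the surrounding genes that passed and for the most abundant gene of each step with none. Upstream sequences are from RefSeq. By the study's description the 4 samples of a genotype came from 4 mice.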

Additional observations from a re-analysis of the deposited data

Results flagged for a closer look

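Among 84 sets of 4 libraries (a gene or ratio in a genotype), Dixon's criterion singled out 2, and chance would give about 4.2. In db/db replicate 1, Got1 stood at 41.2 CPM, beside 12.6 to 16.9 CPM for the remaining db/db libraries. Slc25a10 in that library stood at 25 CPM, beside 9.31 to 11.2 CPM. The library also held the highest sum of skeletal muscle markers, 11386 CPM. With the muscle score as a covariate, the log2 fold change between the genotypes was −0.22 for Got1 (edgeR adjusted p 0.868). For Slc25a10 it was 0.90 (edgeR adjusted p 0.654), though this score itself differs between the genotypes. The part of muscle in the single values of this library was not tested. None of the 6 glycerol genes and none of the 4 ratios had such a library.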

How the results depend on the processing

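Aqp7 kept its direction and its call in all 20 alternatives, with log2 fold changes from 0.58 to 1.003. Gk stayed without a call, from −0.73 to −0.36. With the muscle score in the model, Gpd1 (−0.20) lost its call, Gpd2 (0.057) and Got1 (−0.22) changed sign, 1 of the 6 glycerol genes and 2 of the surrounding genes passed, and 527 genes passed in all. Scaling to the pan-adipocyte genes gave 4 glycerol genes, adding Gpd2 (−0.56) and Pck1 (−1.03), and turned Gpd1l to −0.10. Pck1 also passed with DESeq2 (−0.86), limma-voom (−0.80), all genes with a count (−0.88) and, an alternative chosen after seeing the data, without robust weighting (−0.83). Requiring 10 counts in every sample gave 6 surrounding genes.

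Without 1 library each, log2 fold changes ran from −0.71 to −0.43 for Gpd1, −0.030 to 0.33 for Gpd1l, −0.49 to −0.19 for Gpd2 and −1.05 to −0.70 for Pck1, and 1 to 3 glycerol genes passed. Aqp11 turned to 0.012 without WT replicate 1, and Gk5 ran from −0.28 to 0.066, changing sign without WT replicates 2 (0.066) and 3 (0.042).

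Replicate numbers 1 to 4 occur in both genotypes but mark different animals, and same-numbered libraries correlated at −0.08 to 0.05 in their deviations. With the number as a block, Pck1 passed (−0.80, edgeR adjusted p 9.94e-04) and Got1 did not (adjusted p 0.166). For the ratios, a prior count of 0.5 left the adjusted p-values of the exact permutation test at 0.0571 to 0.429. In pairs the smallest possible p is 0.125, and without 1 library it is 0.0286 before adjustment over the 4 ratios, so these say little about their stability. The 16 to 33 counts of Gk limit its precision.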

Other observations

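By the correlation of deviations from the genotype means of log2 CPM over the 8 libraries, the gene most like Aqp7 among 4530 others with a mean of at least 20 CPM was Vps13a (r = 0.99), which fell in db/db (log2 fold change −0.90, edgeR adjusted p 0.00140). The gene most like Gpd1 was Coq7 (r = 0.99), an enzyme of ubiquinone synthesis, and the gene most like Gpd2 was Gsta4 (r = 0.97), a glutathione transferase that fell in db/db (log2 fold change −0.86, edgeR adjusted p 1.26e-04). Pck1 was most like Arf4 (r = 0.98), Gpd1l most like Dennd5a (r = 0.97) and Gk most like Cand1 (r = 0.94). These are the best of 4530 or 4531 comparisons each over 8 libraries that share depth and scaling, and are given as a description. Slc25a12, the aspartate and glutamate carrier, read 2.02 to 12.3 CPM in WT and 16.7 to 69.2 CPM in db/db without overlap, yet did not pass (log2 fold change 2.20, edgeR adjusted p 0.0654), with its highest level in db/db replicate 1.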
